A study of Mus musculus with 12 samples.

Results

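The 41 genes described here encode the machinery that assembles the N-glycan precursor, transfers it to proteins in the endoplasmic reticulum (ER) and trims it on the way through the Golgi. The list was drawn up by name from what their products do, with earlier results of these data known, and all 41 were found among the 46603 genes of the count table and were among the 13167 genes tested. The RNA came from splenic CD8 T cells of OT-I/Cas9 mice, in which a transgenic receptor recognises an ovalbumin peptide and the nuclease Cas9 is expressed. All cells were cultured with IL-2, IL-7 and IL-15, had been activated before transduction with a guide RNA, and were kept under puromycin selection. The 12 libraries form 6 groups of 2. Control cells, labelled Ctrl and given the vehicle H2O, were kept resting or activated on a plate coated with anti-CD3 at 2.5 ug/mL for 24 h. Tmed10 KO cells, a pool carrying a guide against the cargo receptor gene Tmed10, were given H2O and were likewise resting or activated. The Ctrl cells also received AGN192403 at 100 uM, at rest or with activation. AGN192403 is a small molecule that the study set beside the knockout.

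N-glycosylation starts on dolichol, a long lipid of the ER membrane. Enzymes on the cytosolic face and then on the lumenal face add sugars one at a time, and the oligosaccharyltransferase (OST) moves the finished oligosaccharide onto asparagines of nascent proteins. STT3A and STT3B are alternative catalytic subunits of OST, acting mainly during and after translocation, respectively. Glucosidases, mannosidases and GlcNAc transferases then trim and branch the glycan, and the branches made in the Golgi by MGAT5 set how T cell surface receptors bind galectins.

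Tmed10 itself stood at 116.4 and 116.9 CPM (read counts scaled to the TMM-adjusted library size) in resting control cells and at 61.5 and 65.1 CPM in resting KO cells. After activation it stood at 128.1 and 125.3 CPM in control cells and at 55.9 and 58.3 CPM in KO cells. The KO libraries thus lay below every control library, with log2 differences of -0.89 (SE 0.0525) at rest and -1.15 (SE 0.0525) after activation, and RNA counts do not show how much protein was left. Totals ran from 9089350 to 16481840 counts a library. Summed CD8 T cell markers lay between 1680 and 2580 CPM in the 6 groups, and the markers of each other lineage summed to at most 2.58 CPM. Nuclear RNAs differed between libraries: Kcnq1ot1 stood at 33.3, 33.6 and 42.2 CPM in resting control 1, activated control 1 and activated AGN192403 1, against 3.40 to 16.03 CPM in the other 9 libraries. The KO libraries held the lowest Malat1, at 400.3 to 750.7 CPM against 988.6 to 2594 CPM in the control libraries.

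The members differed widely in level at rest. Per kilobase of exon, the resting control mean was 103.4 CPM for the OST subunit gene Ddost, 75.9 for Rpn2 and 67.0 for the glucosidase II gene Ganab. At the other end it was 1.29 for Dpm1, 1.83 for Alg6 and 1.98 for Alg13. Exons of Gm20716 on the same strand cover 12% of the Dpm1 exon bases. How reads shared by 2 genes were counted is not given, so the level of Dpm1 may be too low. The fewest reads on a member in any library were 53, on Alg14, and the most were 10268, on Rpn1. In the comparison of activated KO with control, the standard error of a log2 difference was 0.142 for Alg14 and 0.0415 for Rpn1.

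Activation of control cells moved most members. A gene was called when the adjusted p of edgeR's quasi-likelihood test over all genes tested was below 0.05. Of the 41 members, 25 were higher and 8 lower in activated than in resting control cells, where 36.4% of all genes tested were higher and 37.4% lower. The median log2 fold change of the members was 0.33, and that of all genes was -0.018. In resting KO cells 1 member was higher, 2.44% and near the 2.81% of all genes, and 0 were lower, beside 4.63%. The median there was 0.05, beside 0.003 over all genes. In activated cells, 15 members were higher in the KO and 1 lower, against 10.8% and 8.78% of all genes, with a median of 0.13 beside 0.017 over all genes. AGN192403 gave 18 members higher and 2 lower at rest, against 11.6% and 13.7% of all genes, and 19 higher and 4 lower after activation, against 16.4% and 18.3%. Its medians were 0.15 at rest and 0.11 after activation, and those of all genes were -0.006 and -0.01. Both perturbations were compared with the same control libraries, so their differences share the error of those libraries.

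The smaller counts moved when a library was left out, which leaves 1 library in its group and fewer degrees of freedom. In the activated KO the median log2 fold change then stayed between 0.08 and 0.13. For the activated KO the count of 16 called fell to 8 without activated control 1, to 9 without activated control 2, to 9 without activated KO 1 and to 10 without activated KO 2. DESeq2 called 7 members, and 11 were called without the 3 libraries richest in Kcnq1ot1. For AGN192403 at rest the count of 20 fell to 12 without resting control 2, to 13 without resting AGN192403 2 and to 12 by DESeq2. DESeq2 called 13 of the 23 members after AGN192403 in activated cells. The number called lower there went from 4 (Man1a, Mogs, Mgat1 and Mgat5) to 1 by DESeq2. It was also 1 with library totals and with only the compared libraries fitted. For the resting KO the count of 1 rose to 2 without resting control 2, and to 2 without the 3 libraries richest in Kcnq1ot1.

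**Figure D1:**
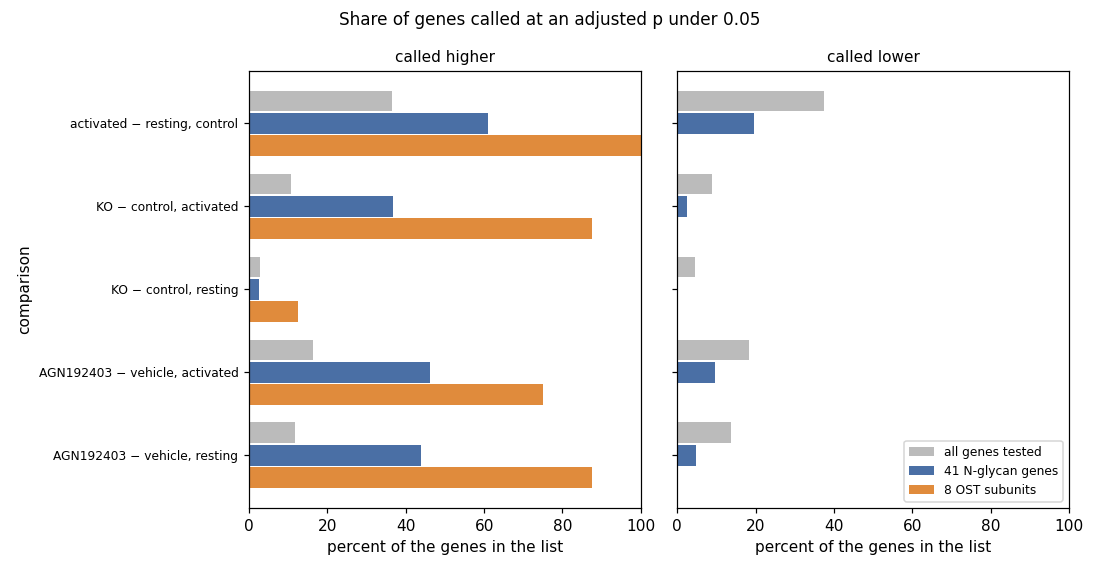
Percent of genes called higher (left) or lower (right) at an adjusted p under 0.05 in 5 comparisons, for all genes tested (grey), the 41 N-glycan genes (blue) and the 8 OST subunit genes (orange). After activation, in the activated KO and under AGN192403 the blue bars for higher genes are longer than the grey ones and those for lower genes are shorter, and the resting KO has 1 member called.

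**Figure D2:**
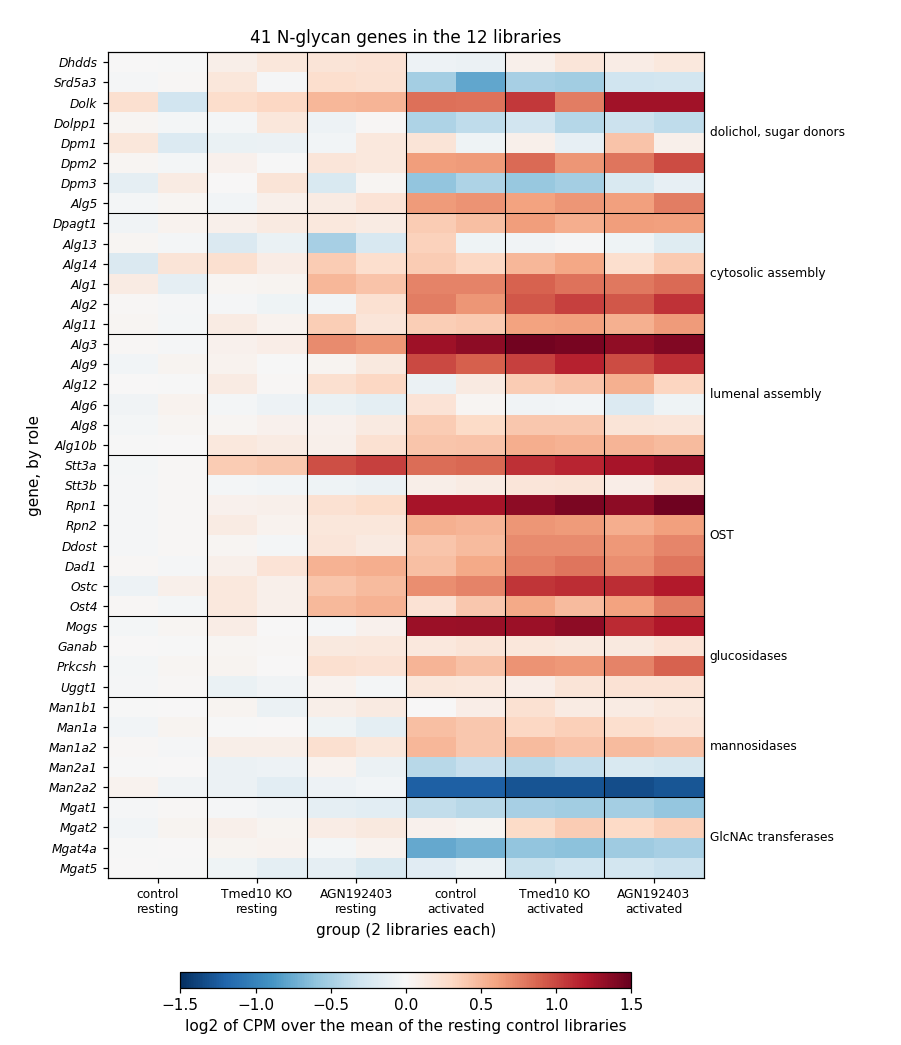
Colour gives the log2 of each library's CPM over the mean CPM of the resting control libraries, with the 41 genes in rows by role and the 12 libraries in columns by group, 2 a group. Stt3a is raised in every group other than resting control, Alg3, Rpn1 and Mogs are raised in all 6 activated libraries, and Man2a2 is lowered in all 6.

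Of the 8 genes that supply dolichol and its sugar donors, 3 were higher and 3 lower on activation, 37.5% each way and near the 36.4% and 37.4% of all genes tested, and 2 were not called. Dolk, the dolichol kinase, stood at 9.19 and 6.36 CPM in resting control, 9.32 and 9.61 in resting KO, and 10.99 and 11.08 in resting AGN192403 cells. Activated libraries held 13.8 and 13.7 CPM in control, 16.3 and 13.2 in KO, and 18.6 and 18.6 in AGN192403 cells. Every activated library lay above every resting one, and the AGN192403 libraries lay above their controls in both states. The log2 change of Dolk was 0.86 (SE 0.144, adjusted p = 8.94e-06) on activation, 0.54 (SE 0.151, adjusted p = 0.00981) with AGN192403 at rest and 0.43 (SE 0.118, adjusted p = 0.00535) with AGN192403 after activation. The resting AGN192403 call was lost without resting control 2 (adjusted p = 0.31) and without resting AGN192403 2 (adjusted p = 0.0785). In the KO, Dolk was not called in either state, with log2 differences of 0.31 (SE 0.154) and 0.13 (SE 0.122).

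Srd5a3, whose product is needed to reduce polyprenol to dolichol, went the other way on activation, from 35.0 and 35.9 CPM to 24.9 and 20.6 CPM, a log2 change of -0.64 (SE 0.0864, adjusted p = 3.36e-07). AGN192403 raised Srd5a3 in activated cells to 28.9 and 29.2 CPM, by 0.35 (SE 0.0891, adjusted p = 0.00307), a call lost without activated control 2 (adjusted p = 0.0819). Dpm3, a regulatory subunit of dolichol-phosphate mannose synthase, fell by 0.54 on the log2 scale (SE 0.126, adjusted p = 0.000463) on activation. Its partner subunit Dpm2 rose by 0.63 (SE 0.0866), and the catalytic Dpm1 changed by 0.09 (SE 0.153) and was not called in any of the 5 comparisons. The exon overlap of Dpm1 with Gm20716 given above limits its counts here too. The dolichyl pyrophosphate phosphatase gene Dolpp1, which recycles the carrier, fell by 0.42 on the log2 scale on activation (SE 0.0908, adjusted p = 0.000216). With AGN192403 after activation, 5 of these 8 genes were higher and 0 lower, against 16.4% and 18.3% of all genes. In the activated KO 1 was higher, 12.5% and near the 10.8% of all genes. It was the cis-prenyltransferase gene Dhdds at 0.20 (SE 0.0576, adjusted p = 0.0131). The Dhdds call was lost without activated control 1 (adjusted p = 0.0593), activated control 2 (adjusted p = 0.0857) or activated KO 2 (adjusted p = 0.128).

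On the cytosolic face, 4 of 6 assembly genes rose on activation and 0 fell, where 36.4% and 37.4% of all genes tested did. Alg1, which adds the first mannose, rose by 0.76 (SE 0.0832, adjusted p = 1.04e-08), and the mannosyltransferase genes Alg2 and Alg11 rose by 0.72 and 0.39. Dpagt1, which attaches the first GlcNAc phosphate to dolichol phosphate, rose by 0.41. In activated KO cells Alg2 (0.25), Alg11 (0.23) and Dpagt1 (0.18) were higher again, and under AGN192403 in activated cells the differences were 0.29, 0.21 and 0.20, all called. In the KO these calls were lost for Alg2 without activated control 2 (adjusted p = 0.158) or activated KO 2 (0.109), for Dpagt1 without activated control 1 (0.229) or activated KO 1 (0.333), and for Alg11 without any 1 of the 4 libraries (0.0626 to 0.0967). With AGN192403 they were lost for Alg2 without activated AGN192403 2 (adjusted p = 0.073), for Dpagt1 without activated control 1 (0.0934) and for Alg11 without activated control 1 (0.0808) or activated AGN192403 2 (0.178). Alg1 followed another course. It stood at 22.8 and 19.1 CPM in resting control and at 29.6 and 28.1 CPM in resting AGN192403 cells, a log2 difference of 0.47 (SE 0.0869, adjusted p = 0.000214), and differed by 0.08 (SE 0.0735, adjusted p = 0.453) in activated cells. Of the exon bases of Alg1, 17.6% lie under exons of Eef2kmt on the opposite strand. The libraries were strand-specific, but whether counting used the strand is not given in the sources used here, and Eef2kmt was 0.74 higher (SE 0.107) with AGN192403 at rest, so reads of the pair cannot be told apart there.

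On the lumenal face, Alg3 showed the largest rise of any member on activation. Alg3, which adds the first lumenal mannose from dolichol-phosphate mannose, stood at 18.9 and 18.5 CPM in resting control, 19.50 and 19.98 in resting KO and 30.7 and 29.7 in resting AGN192403 cells. It stood at 45.1 and 47.3 CPM in activated control, 51.1 and 50.0 in activated KO and 46.9 and 49.2 in activated AGN192403 cells. The resting AGN192403 libraries therefore lay between the resting and the activated controls. Antisense exons of Eef1akmt4, Gm49333 and Vwa5b2 cover 8.7% of the Alg3 exon bases, and the levels of those genes were not examined. The log2 changes of Alg3 were 1.31 (SE 0.0742, adjusted p = 2.99e-14) on activation and 0.69 (SE 0.0809, adjusted p = 4.7e-07) with AGN192403 at rest, against 0.06 (SE 0.0612, adjusted p = 0.502) with AGN192403 after activation. Alg9, another mannosyltransferase gene, rose by 0.94 on activation (SE 0.0698, adjusted p = 6.81e-12) from 33.9 and 36.0 CPM to 69.2 and 65.2 CPM. Antisense exons of 1110032A03Rik cover 12.9% of the Alg9 exon bases, and that gene fell on activation by 1.39 on the log2 scale. Reads of that pair cannot be told apart either. The glucosyltransferase gene Alg6 was not called in any of the 5 comparisons, with differences between -0.24 and 0.12.

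Alg12 was not called on activation and was higher in activated KO cells and with AGN192403 in both states. Alg12, which adds one of the last mannoses of the precursor, stood at 19.7 and 19.5 CPM in resting control and 18.4 and 21.5 CPM in activated control, which overlap. It stood at 25.4 and 26.3 CPM in activated KO and 28.4 and 24.5 CPM in activated AGN192403 cells, all above the controls. At rest it stood at 21.3 and 19.9 CPM in KO and 23.1 and 24.2 CPM in AGN192403 cells. The log2 differences after activation were 0.37 (SE 0.0927, adjusted p = 0.00538) in the KO and 0.40 (SE 0.093, adjusted p = 0.0015) with AGN192403, and 0.28 (SE 0.0965, adjusted p = 0.0346) with AGN192403 at rest. In the resting KO the difference was 0.08 (SE 0.0978, adjusted p = 0.71), not called. Without activated control 1 these adjusted p were 0.136 for the KO and 0.0549 for AGN192403, and the call at rest was lost without any 1 of its 4 libraries, with adjusted p from 0.0685 to 0.249. Without the 3 libraries richest in Kcnq1ot1 none of the 3 was called (adjusted p = 0.0983, 0.297 and 0.0576).

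The promoters of the members were searched for short motifs of ER-stress and related regulation. RefSeq windows on GRCm38.p6, from 250 bases before to 50 bases after each gene start, were at hand for 35 of the 41 members and lacked Dpagt1, Alg2, Alg11, Ostc, Man1a2 and Man2a2. The ER stress element, CCAAT and CCACG separated by 9 bases and sought on both strands, was found for Alg12 alone among the 35, and for 0.137% of all genes with a window. CCACG alone, which this element contains, was found in 19 of the 35 (54.3%) against 35.5% of all genes, and CCAAT alone in 19 (54.3%) against 41.1%. Here all genes are the 27025 with a window, expressed or not, while the members were all expressed enough to be tested. The shares are therefore not set against like genes. TGACGTGG and TTGCATCA were found in 0 of the 35, against 0.714% and 1.03% of all genes. The stretches before the start of Alg12, with the element, and of the paralogues Stt3a and Stt3b, the alternative catalytic subunits, are shown on the gene's strand with CCAAT and CCACG on either strand in capitals. That of Alg12 is chr15:88819319-88819568, minus strand.
Alg12: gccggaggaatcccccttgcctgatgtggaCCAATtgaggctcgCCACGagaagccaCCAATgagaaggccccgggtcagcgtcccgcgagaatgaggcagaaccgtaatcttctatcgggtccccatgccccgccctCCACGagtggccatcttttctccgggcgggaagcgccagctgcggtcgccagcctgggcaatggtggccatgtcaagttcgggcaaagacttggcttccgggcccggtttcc
Stt3a: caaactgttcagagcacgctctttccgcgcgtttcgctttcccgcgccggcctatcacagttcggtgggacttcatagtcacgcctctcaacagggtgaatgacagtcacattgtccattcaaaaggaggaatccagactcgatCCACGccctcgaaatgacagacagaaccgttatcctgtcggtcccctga
Stt3b: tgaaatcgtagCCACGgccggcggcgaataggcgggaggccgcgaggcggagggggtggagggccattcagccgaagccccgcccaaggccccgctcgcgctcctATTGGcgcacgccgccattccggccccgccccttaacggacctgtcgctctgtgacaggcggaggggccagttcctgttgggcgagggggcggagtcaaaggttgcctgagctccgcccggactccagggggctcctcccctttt
The Stt3a stretch is chr9:36767680-36767872 and that of Stt3b is chr9:115310469-115310718, both on the minus strand. For Stt3b the GENCODE model starts at chr9:115310421, downstream of the RefSeq start used here. In Alg12 the element runs from 220 to 202 bases before the start, and a further CCACG ends 108 bases before it. Both Stt3a and Stt3b hold a CCACG and a CCAAT, although that of Stt3a, 35 to 31 bases before the RefSeq start, lies in the first exon of the GENCODE model and is not shown. Such a match is a description of the letters and not evidence that a factor binds there.

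Most OST subunit genes were higher after activation, in the activated KO and with AGN192403 in both states. All 8 subunit genes rose on activation, 7 of 8 were higher in the activated KO, 6 of 8 with AGN192403 after activation and 7 of 8 with AGN192403 at rest, and none was lower in any of these. Of all genes tested, 36.4%, 10.8%, 16.4% and 11.6% were higher in the same order. Stt3a stood at 273.9 and 283.0 CPM in resting control, 362.6 and 367.5 in resting KO and 544.4 and 564.9 in resting AGN192403 cells. It stood at 498.7 and 507.0 CPM in activated control, 592.7 and 613.7 in activated KO and 656.4 and 688.1 in activated AGN192403 cells. No group overlapped another, and resting AGN192403 cells held more Stt3a RNA than activated control cells. The log2 difference of Stt3a with AGN192403 was 0.99 at rest (SE 0.0409, adjusted p = 2.71e-15), the largest of any member under a perturbation, and 0.42 after activation (SE 0.0393, adjusted p = 4.52e-09). In the KO it was 0.39 at rest (SE 0.0413, adjusted p = 7.28e-07) and 0.26 after activation (SE 0.0394, adjusted p = 2.33e-05). Stt3a was the single member called in the resting KO, and its calls in these 4 comparisons held in every alternative tried.

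Stt3b was not called under either perturbation. It stood at 259.7 and 264.9 CPM in resting control, 257.8 and 254.6 in resting KO and 251.6 and 246.9 in resting AGN192403 cells, and at 279.2 and 286.5, 297.1 and 299.1, and 281.5 and 304.0 CPM in the activated groups in the same order. Its differences were -0.03 (SE 0.0424) and 0.08 (SE 0.0417) in the KO and -0.07 (SE 0.0426) and 0.05 (SE 0.0417) with AGN192403, at rest and after activation, none of them called. The rise on activation, 0.11 (SE 0.0422, adjusted p = 0.024), was lost without resting control 1 (adjusted p = 0.123), resting control 2 (adjusted p = 0.053) or activated control 2 (adjusted p = 0.083). The ratio of Stt3a to Stt3b counts was 1.06 and 1.07 in resting control, 1.41 and 1.44 in resting KO and 2.16 and 2.29 in resting AGN192403 cells. Activated control libraries had 1.79 and 1.77, activated KO libraries 2.00 and 2.05, and activated AGN192403 libraries 2.33 and 2.26. The libraries of resting and of activated AGN192403 cells overlapped in this ratio, which is of counts and not of levels per length.

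Other subunits rose as well, by differing amounts. Ostc, an accessory subunit of the STT3A form of OST, stood at 88.3 and 98.0 CPM in resting control, 104.3 and 98.1 in resting KO and 124.2 and 129.4 in resting AGN192403 cells. In activated cells it stood at 151.5 and 155.6 CPM in control, 196.6 and 200 in KO and 201.5 and 211.7 with AGN192403. Both perturbed groups lay above the controls after activation. Its log2 differences were 0.72 (SE 0.0523, adjusted p = 4.67e-12) on activation, 0.37 (SE 0.0479, adjusted p = 3.44e-06) in the activated KO, 0.43 (SE 0.0477, adjusted p = 8.25e-08) with AGN192403 after activation and 0.44 (SE 0.0535) with AGN192403 at rest. In the resting KO it was 0.12 (SE 0.0546, adjusted p = 0.21).

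Dad1, a small subunit named as a defender against cell death, stood at 88.1 and 86.5 CPM in resting control, 92.3 and 100.6 in resting KO and 125.2 and 127.6 in resting AGN192403 cells. Activated libraries held 118.9 and 129.6 CPM in control, 147.2 and 152.9 in KO and 141.2 and 152.7 with AGN192403. Resting AGN192403 cells thus reached the range of activated control cells. The differences of Dad1 were 0.54 (SE 0.0559, adjusted p = 6.34e-08) with AGN192403 at rest, 0.25 (SE 0.052) with AGN192403 after activation and 0.27 (SE 0.0519, adjusted p = 0.000428) in the activated KO.

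Rpn1, which presents substrates to the catalytic subunit, had the largest activation change in OST. It stood at 247.4 and 254.8 CPM in resting control, 262.7 and 264.5 in resting KO, 295.3 and 304.0 in resting AGN192403, and 592.6 and 593.4, 635.0 and 669.8, and 635.8 and 687.6 CPM in activated control, KO and AGN192403 cells. The rise on activation was 1.24 (SE 0.0436, adjusted p = 1.55e-18), and the differences in activated cells were 0.14 in the KO and 0.16 with AGN192403. The Rpn1 call in the KO was lost without activated control 1 (adjusted p = 0.0963), activated control 2 (adjusted p = 0.0973) or activated KO 2 (adjusted p = 0.243), and that with AGN192403 without activated AGN192403 2 (adjusted p = 0.0742).

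Ddost, an OST scaffold subunit, was higher by 0.26 in the activated KO (SE 0.0417, adjusted p = 4.3e-05), at 358.2 and 358.5 against 292.4 and 304.5 CPM, and by 0.00 in the resting KO (SE 0.0439). Ost4, which stabilises the catalytic subunit, was 0.51 higher with AGN192403 at rest (SE 0.0709, adjusted p = 5.84e-06) and 0.38 after activation (SE 0.066, adjusted p = 4.85e-05). In the activated KO Ost4 was 0.22 higher (SE 0.0669, adjusted p = 0.0203). Exons of Agbl5 on the opposite strand cover 53.2% of the Ost4 exon bases. Agbl5 differed in the same comparisons by -0.50 (SE 0.0766) and -0.32 (SE 0.0899). Whether counting used the strand is not given, so reads of this pair cannot be told apart, and the effect of the overlap was not tested. Rpn2 was 0.13 higher in the activated KO (SE 0.0396, adjusted p = 0.0174), a call lost without any 1 of the 4 libraries, with adjusted p from 0.0514 to 0.148.

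**Figure D3:**
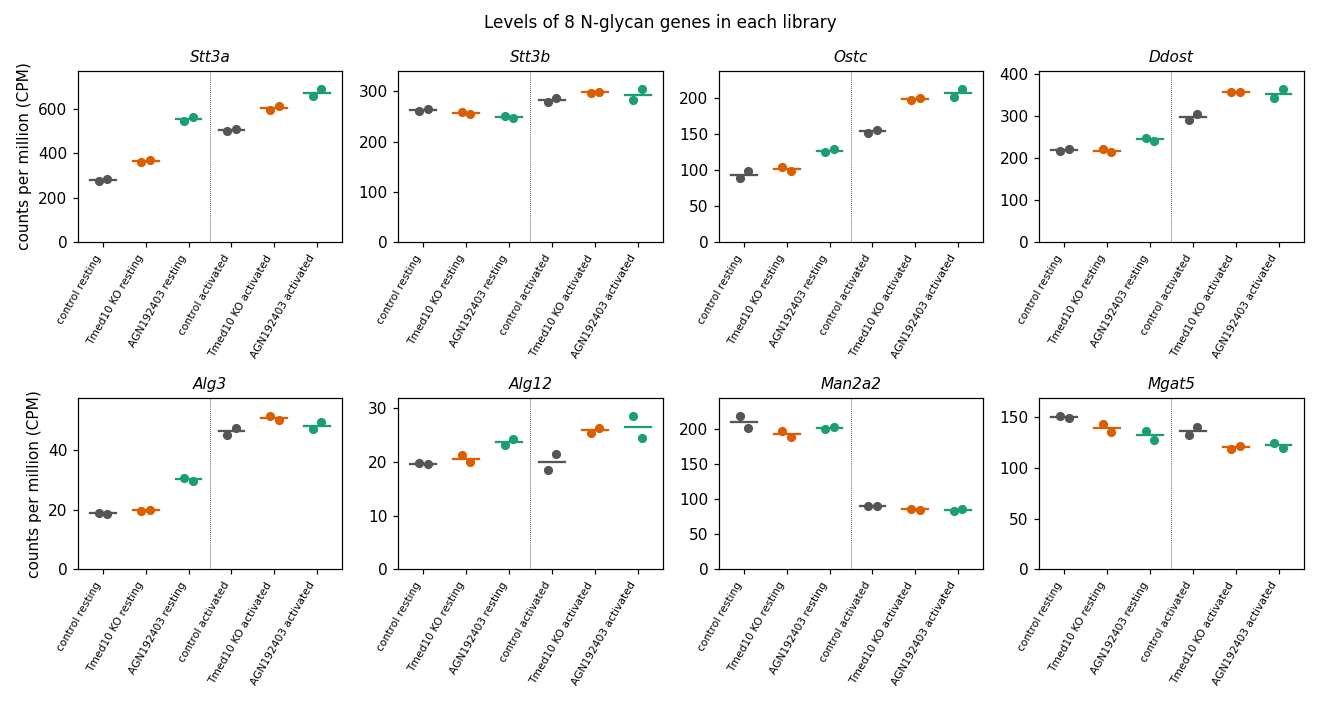
CPM of 8 genes in each library (points) with the mean of the 2 libraries of a group (lines), for resting groups left and activated groups right of the dotted line, in control (grey), Tmed10 KO (orange) and AGN192403 (green) cells. Stt3a separates all 6 groups while Stt3b stays between 246.9 and 304.0 CPM, and Man2a2 falls with activation in every arm.

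Among the genes that trim glucose and sense folding, all 4 rose on activation, where 36.4% of all genes tested did. Mogs, glucosidase I, which removes the outermost glucose, stood at 84.6 and 88.1 CPM in resting control, 93.6 and 86.9 in resting KO and 85.2 and 90.4 in resting AGN192403 cells. It stood at 210.9 and 211.8 CPM in activated control, 210.1 and 219.5 in activated KO and 187.5 and 199.1 in activated AGN192403 cells. The resting groups overlapped, and after activation the AGN192403 libraries were the lowest. The rise was 1.29 (SE 0.0502, adjusted p = 1.27e-17), and with AGN192403 after activation Mogs was lower by -0.13 (SE 0.0456, adjusted p = 0.0331). That small difference was lost without activated control 1 (adjusted p = 0.0961), activated control 2 (adjusted p = 0.201) or activated AGN192403 1 (adjusted p = 0.299). Of the glucosidase II subunit genes, the regulatory Prkcsh was higher by 0.34 (SE 0.0456, adjusted p = 1.32e-06) and the catalytic Ganab by 0.00 (SE 0.0382) with AGN192403 after activation. In the activated KO Prkcsh differed by 0.19 (SE 0.046, adjusted p = 0.00444), lost without activated control 2 (adjusted p = 0.0881) or activated KO 1 (adjusted p = 0.0549), and Ganab by -0.01 (SE 0.0382). With AGN192403 at rest both were called higher, Prkcsh by 0.23 (SE 0.0488, adjusted p = 0.00103) and Ganab by 0.15 (SE 0.0386, adjusted p = 0.00438). Uggt1, the refolding sensor that adds a glucose back, rose by 0.16 (SE 0.0425, adjusted p = 0.00137) on activation and was not called under either perturbation.

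Of the 5 mannosidase genes, 2 were higher and 2 lower on activation, 40% each way beside 36.4% and 37.4% of all genes tested. The ER mannosidase gene Man1b1 was not called (0.05, SE 0.0574, adjusted p = 0.439). The Golgi mannosidase I genes Man1a and Man1a2, which act first, rose by 0.43 (SE 0.0462, adjusted p = 7.4e-09) and 0.45 (SE 0.0519, adjusted p = 2.11e-08). The mannosidase II genes Man2a1 and Man2a2, which act after MGAT1, fell by 0.38 (SE 0.0475, adjusted p = 1e-07) and by 1.22 on the log2 scale (SE 0.0478, adjusted p = 1.44e-17). Man2a2 stood at 217.8 and 201.6 CPM in resting control, 196.8 and 188.4 in resting KO and 199.2 and 203.4 in resting AGN192403 cells. It stood at 89.8 and 90.0 CPM in activated control, 85.6 and 85.3 in activated KO and 83.4 and 86.2 in activated AGN192403 cells. Every activated library lay below every resting one. The ratio of Man2a1 to Man2a2 counts went from 0.849 and 0.929 in resting to 1.56 and 1.63 in activated control cells. The KO changed none of these 4 by the test. In the activated KO the differences were -0.10 for Man1a (SE 0.0449), 0.00 for Man1a2 (SE 0.049), -0.01 for Man2a1 (SE 0.0485) and -0.07 for Man2a2 (SE 0.0524), and in the resting KO they were 0.00, 0.09, -0.08 and -0.12, none of them called.

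With AGN192403, Man1a was lower after activation, at 155.4 and 150.5 against 179.1 and 173.3 CPM (-0.21, SE 0.0453, adjusted p = 0.000815), and differed by -0.11 at rest (SE 0.0483, adjusted p = 0.112). Man1a2 was 0.20 higher at rest (SE 0.0535, adjusted p = 0.00693), which was lost without resting control 2 (adjusted p = 0.0696) or resting AGN192403 1 (adjusted p = 0.0725), and differed by 0.00 after activation. Man2a1 differed by -0.02 at rest and by 0.13 after activation (SE 0.0481, adjusted p = 0.0355), lost without activated control 1 (adjusted p = 0.262) or activated AGN192403 1 (adjusted p = 0.0763). Man2a2 was not called, at -0.06 and -0.08.

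Of the 4 GlcNAc transferase genes, 3 fell and 0 rose on activation, where 37.4% and 36.4% of all genes tested did. Mgat4a, which adds a further branch to the arm that MGAT1 started, fell by 0.74 on the log2 scale (SE 0.0466, adjusted p = 2.48e-13), from 155.5 and 155.6 CPM to 91.1 and 95.5 CPM. Mgat1, which starts complex glycans, fell by 0.40 on the log2 scale (SE 0.0459, adjusted p = 2.72e-08), and Mgat5 by 0.13 (SE 0.0475, adjusted p = 0.0146). Mgat2, which starts the other antenna, did not pass the test on activation (0.05, SE 0.0497). Its levels were 102.2 and 108.2 CPM in resting control, 110.5 and 108.6 in resting KO and 113.3 and 116.7 in resting AGN192403 cells, and 110.4 and 108.2, 128.1 and 137.0, and 129.6 and 134.3 CPM in activated control, KO and AGN192403 cells. Both activated perturbed groups lay above every other library. The differences of Mgat2 in activated cells were 0.27 in the KO (SE 0.0481, adjusted p = 0.000163) and 0.27 with AGN192403 (SE 0.0481, adjusted p = 6.61e-05), and at rest 0.06 (SE 0.0496) and 0.13 (SE 0.0496), not called.

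Mgat5 was called lower with AGN192403 in both states and was the single member called lower in the activated KO. It stood at 150.4 and 148.9 CPM in resting control, 143.2 and 135.4 in resting KO and 136.1 and 127.6 in resting AGN192403 cells, and at 132.6 and 140.2, 118.8 and 121.8, and 123.9 and 119.8 CPM in activated control, KO and AGN192403 cells. In both states the perturbed libraries lay below the controls. The differences were -0.18 in the activated KO (SE 0.0483, adjusted p = 0.00777), -0.10 in the resting KO (SE 0.0473, adjusted p = 0.246), -0.16 with AGN192403 after activation (SE 0.0484, adjusted p = 0.00967) and -0.19 with AGN192403 at rest (SE 0.0479, adjusted p = 0.0051). When 1 library was left out, Mgat5 calls were lost without activated control 2, activated KO 1, activated AGN192403 2 or resting AGN192403 2. Leaving out activated control 2 lost both the KO and the AGN192403 call. The call in the activated KO was also lost without an expression filter, where 0 members were lower. The activation call was lost without resting control 1 (adjusted p = 0.0549) or activated control 1 (adjusted p = 0.168).

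Mgat1 differed by -0.11 (SE 0.0475) and -0.04 (SE 0.0444) in the activated and the resting KO, not called, and by -0.15 (SE 0.0478, adjusted p = 0.0154) and -0.15 (SE 0.0451, adjusted p = 0.0154) with AGN192403. The Mgat1 calls were lost without activated control 1 (adjusted p = 0.124), activated control 2 (0.0615), activated AGN192403 2 (0.144), resting control 2 (0.135), resting AGN192403 1 (0.0518) or resting AGN192403 2 (0.169). Mgat4a was 0.14 higher in the activated KO (SE 0.0485, adjusted p = 0.0483), lost without any 1 of its 4 libraries (adjusted p from 0.0733 to 0.324), and 0.22 higher with AGN192403 after activation (SE 0.0483, adjusted p = 0.000722). At rest it differed by 0.04 and 0.01.

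**Figure D4:**
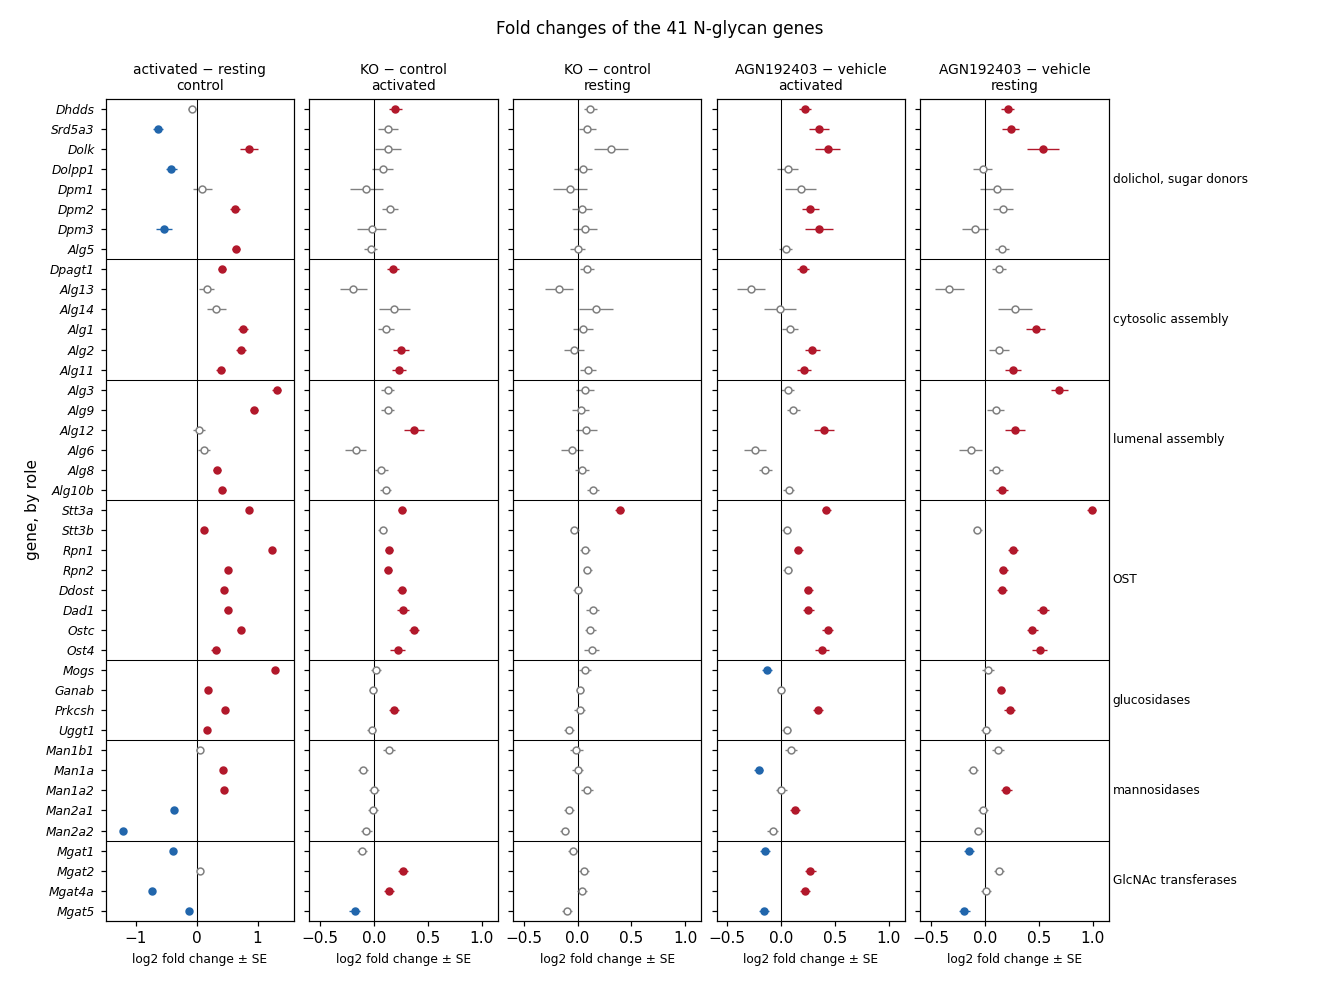
Log2 fold change of the 41 genes, by role, with bars of 1 standard error, for activation of control cells and for the KO and AGN192403 against control in both states. Filled red and blue points were called higher and lower and open points were not called, and the first panel has a wider axis. OST subunits other than Stt3b sit right of 0 in 4 panels, and Mgat5 sits left of 0 in all 5.

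Whether the response to activation itself differed between the arms was tested as an interaction. Against the control response, that of KO cells was higher for 2 members and lower for 0 (3.07% and 1.89% of all genes), namely Ddost at 0.27 (SE 0.0605, adjusted p = 0.00829) and Ostc at 0.25 (SE 0.0727, adjusted p = 0.0478). Leaving out any single library other than resting control 1 took that count to 0 or 1. Ddost was lost without activated control 1 (adjusted p = 0.0553), resting KO 1 (0.052), resting KO 2 (0.145), activated KO 1 (0.0816) or activated KO 2 (0.0671), and Ostc without any of the 4 KO libraries, resting control 2 or either activated control, with adjusted p up to 0.356.

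With AGN192403 the response was higher for 1 member and lower for 5. These are 2.44% and 12.2% of members beside 8.62% and 11.1% of all genes, so the share lower was near that of all genes. Stt3a (-0.57, SE 0.0565, adjusted p = 8.35e-08) and Alg3 (-0.63, SE 0.102, adjusted p = 7.5e-05) rose less on activation with AGN192403 than without it, from the higher resting levels given above. The others were Alg1 (-0.39, SE 0.114, adjusted p = 0.0158), Dad1 (-0.29, SE 0.0765, adjusted p = 0.00772), Alg8 (-0.25, SE 0.088, adjusted p = 0.0479) and, in the other direction, Mgat4a (0.21, SE 0.0653, adjusted p = 0.0248). The calls of Stt3a and Alg3 held in every alternative tried. The count of 6 fell to 3 without resting control 2 or without activated control 2. Dad1 was lost without resting AGN192403 2 (adjusted p = 0.0574) or activated control 2 (0.087), and Alg1 without resting control 2 (0.185), resting AGN192403 1 (0.0697) or activated control 2 (0.0509). Alg8 was lost without any 1 of the 8 libraries (adjusted p from 0.064 to 0.289), and Mgat4a without either resting control, resting AGN192403 1, activated control 1 or activated AGN192403 2 (0.0555 to 0.128).

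The KO and AGN192403 cells were also compared directly. At rest 0 members were higher and 10 lower in the KO (8.83% and 7.78% of all genes), and 6 of the 10 were OST subunit genes. The largest differences were Alg3 at -0.61 (SE 0.0787, adjusted p = 2.99e-06), Stt3a at -0.60 (SE 0.0401, adjusted p = 8.18e-11), Alg1 at -0.42 (SE 0.0848, adjusted p = 0.000928), Dad1 at -0.40 (SE 0.0548, adjusted p = 7.72e-06) and Ost4 at -0.38 (SE 0.0689, adjusted p = 0.000293). The count of 10 fell to 6 without resting AGN192403 2, resting KO 1 or resting KO 2. After activation 2 members were higher and 4 lower in the KO, 4.88% and 9.76% of members beside 13% and 7.34% of all genes. The lower ones were Dpm3 (-0.37, SE 0.127), Stt3a (-0.16, SE 0.039, adjusted p = 0.00477), Prkcsh (-0.16, SE 0.0452) and Man2a1 (-0.14, SE 0.048), and the higher ones were Alg8 (0.21, SE 0.0593) and Mogs (0.15, SE 0.0455). Of these 6 calls, that of Stt3a was kept without each library in turn. Those of Dpm3, Alg8, Mogs and Man2a1 were lost without activated KO 1 (adjusted p = 0.195, 0.137, 0.0875 and 0.173), and that of Prkcsh without activated AGN192403 2 (0.265). The count of 6 fell to 3 without activated KO 1 or activated KO 2 and to 2 by DESeq2. With total counts in place of TMM it was 10, of which 9 were lower.

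Of 44 further genes that feed or extend the pathway, 41 were tested. Of 6 genes tested whose products make or transport UDP-GlcNAc, the sugar donor of the first and the branching steps, 5 rose and 1 fell on activation, where 36.4% and 37.4% of all genes did. In the resting KO 2 were higher and 0 lower (2.81% and 4.63% of all genes), and in the activated KO 4 were higher and 0 lower (10.8% and 8.78%). With AGN192403 4 were higher and 0 lower at rest (11.6% and 13.7% of all genes), and 4 were higher and 1 lower after activation (16.4% and 18.3%), the lower one being Uap1l1 at -0.44 (SE 0.171, adjusted p = 0.0481). Pgm3, the phosphoacetylglucosamine mutase gene, was 1.39 higher with AGN192403 at rest (SE 0.0917, adjusted p = 2.12e-11), 0.71 after activation (SE 0.0681), 0.46 in the resting KO (SE 0.103) and 0.32 in the activated KO (SE 0.0709). Gnpnat1, which acetylates glucosamine phosphate, was higher by 0.70, 0.62 and 0.39 in the first, second and last of these and was not called in the resting KO. Gfpt1, the entry enzyme, was called higher in all 4, by 0.65, 0.39, 0.17 and 0.17. Among 8 genes of mannose supply and dolichol, 6 rose on activation and 0 fell (36.4% and 37.4% of all genes). Gmppb, which makes GDP-mannose, rose by 1.67 on activation (SE 0.0681, adjusted p = 3.3e-17) and was 0.79 higher with AGN192403 at rest, 0.61 after activation and 0.35 in the activated KO. Nus1, the partner of Dhdds, rose by 1.08 on activation.

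Of 4 other OST subunit genes, 3 were higher in the activated KO, 3 with AGN192403 at rest and 3 with AGN192403 after activation, where Tusc3 was lower. Of all genes tested, 10.8%, 11.6% and 16.4% were higher in the same order, and 18.3% were lower in the last. Tmem258 differed by 0.32, 0.39 and 0.42, Krtcap2 by 0.26, 0.22 and 0.37, and Magt1, a subunit of the STT3B form, by 0.19, 0.26 and 0.23. In the calnexin cycle and disposal group 4 of 9 were higher and 1 lower in the activated KO (10.8% and 8.78% of all genes). Pdia3, the glycoprotein disulfide isomerase, differed by 0.32 (SE 0.0415, adjusted p = 3.6e-06) and the disposal gene Edem1 by -0.11 (SE 0.0372, adjusted p = 0.0304). Calr, a lectin chaperone, rose by 1.18 on activation, while Ngly1, which strips glycans from discarded proteins, fell by 1.10 on the log2 scale.

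Of 14 later Golgi genes tested, 8 were lower and 5 higher on activation (57.1% and 35.7%), where 37.4% and 36.4% of all genes tested were. The sialyltransferase genes St3gal6 and St6gal1 fell by 3.30 and by 2.85 on the log2 scale (SE 0.101 and 0.0739), the fucosyltransferase gene Fut8 fell by 2.58 (SE 0.069) and the galactosyltransferase gene B4galt2 rose by 2.72 (SE 0.166). In the activated KO 5 of 14 were higher and 0 lower (10.8% and 8.78% of all genes). The rises were led by St3gal6 at 0.81 (SE 0.142, adjusted p = 0.000163), Fut8 at 0.36 (SE 0.0892, adjusted p = 0.00522) and the GDP-fucose transporter gene Slc35c1 at 0.34 (SE 0.055, adjusted p = 6.15e-05). With AGN192403 after activation 5 of 14 were higher and 1 lower (16.4% and 18.3% of all genes), with the UDP-galactose transporter gene Slc35a2 at 0.56 (SE 0.0664, adjusted p = 2.06e-07) and St6gal1 lower at -0.30 (SE 0.112, adjusted p = 0.0402). At rest 2 were higher and 3 lower with AGN192403 (11.6% and 13.7% of all genes). The lower ones were Mgat3, which adds the bisecting GlcNAc, at -1.42 (SE 0.286, adjusted p = 0.000555), St3gal6 at -0.30 (SE 0.0668, adjusted p = 0.00153) and St6gal1 at -0.27 (SE 0.0539, adjusted p = 0.00045). Mgat3 was scarce, at 5.095 and 4.313 CPM in resting control and 1.06 and 2.22 CPM in resting AGN192403 cells.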

How the data were processed

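RNA was extracted with Trizol per the labels (the study's methods name a column kit), poly(A) strand-specific libraries were made, and per the labels the reads were aligned to GRCm38 (mm10) with STAR 2.6.0c and counted per gene with HTSeq. The authors deposited raw counts for 46603 genes, and the strand setting is not given in the sources used here. Counts were filtered with filterByExpr over the 6 groups (13167 genes, 99.9% of counts), scaled by TMM and tested with edgeR 4.0.16 (R 4.3.3) by the quasi-likelihood test over all 12 libraries, 1 coefficient a group, leaving 6 residual degrees of freedom, with Benjamini-Hochberg adjustment over all genes tested. The common biological coefficient of variation was 0.0306. DESeq2 1.42.0 was an alternative. The script was tested on simulated data. Levels per kilobase used GENCODE exon unions.

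Genes named with full statistics included the up to 6 largest called rises and falls of a comparison plus 10 fixed genes. All libraries were given for the 4 largest, and also for Stt3b and Mgat5, which are among the fixed genes. Members and lists were chosen with earlier results of these data known. Nothing says the replicates are separate cultures or mice, so p-values measure the spread between these samples. Replicates differed by more than counting error (chi-square per degree of freedom 1.14 to 3.96). The standard errors come from the quasi-likelihood test and include the spread between libraries.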

Additional observations from a re-analysis of the deposited data

Results flagged for a closer look

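The activation response of 8 members differed between arms by the interaction test. For the KO 4.88% of members were higher and 0% lower, near the 3.07% and 1.89% of all genes. For AGN192403 2.44% were higher, beside 8.62% of all genes, and 12.2% lower, near the 11.1% of all genes. The calls of Stt3a and Alg3 held in every alternative tried, and those of the others did not. In the KO against control it was larger for Ddost (0.27) and Ostc (0.25). With AGN192403 against vehicle it was smaller for Alg1 (-0.39), Alg3 (-0.63), Alg8 (-0.25), Stt3a (-0.57) and Dad1 (-0.29), and the fall of Mgat4a was smaller (0.21).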

How the results depend on the processing

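Over 4754 recomputed member differences, 4480 kept their side of the threshold, 224 lost it, 50 gained it and 0 reversed, and the cause was not tested. Most of these differences were not called in the main fit, so the losses are a larger share of the calls than of the total. Where neither value was called, a change of sign was not counted as a reversal. DESeq2 lost 38 calls and gained 0. Its counts of members called were 7 in the activated KO, 13 and 12 with AGN192403 after activation and at rest, 1 and 3 for the activation responses of KO and AGN192403 cells, and 2 for KO against AGN192403 after activation. Without an expression filter the medians were 0.16 (activated KO), 0.18 (AGN192403 at rest), 0.37 (activation), and 0.03 and -0.14 for KO against AGN192403 after activation and at rest, with 3 called after activation. With library totals the AGN192403 medians were 0.15 and 0.19 after activation and at rest. KO against AGN192403 after activation then had 10 called and a median of -0.05. Median-ratio size factors gave -0.08 for KO against AGN192403 at rest, and the activation fit of the compared libraries alone gave 0.36. For the KO activation response 1 was called under the strict filter, median-ratio factors and totals. Without the 3 libraries richest in Kcnq1ot1, an alternative chosen after seeing the data, the resting KO had 2 called, the KO activation response 4, and the activation median was 0.37.

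Leaving out 1 library in turn gave the following ranges of members called and of the median log2 fold change.
For the activated KO they were 8 to 10 called and 0.08 to 0.13. For the resting KO they were 1 to 2 called and 0.04 to 0.08. For AGN192403 after activation they were 16 to 22 called and 0.1 to 0.12. For AGN192403 at rest they were 12 to 16 called and 0.12 to 0.17. For activation they were 31 to 33 called and 0.33 to 0.4. For the KO activation response they were 0 to 2 called and 0 to 0.07. For the AGN192403 activation response they were 3 to 7 called and -0.05 to 0.01. For KO against AGN192403 after activation they were 3 to 4 called and -0.05 to 0.02. For KO against AGN192403 at rest they were 6 to 7 called and -0.08 to -0.04.

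Replicate numbers were checked as pairs: the correlation of same-numbered libraries' deviations ran from -0.005 to 0.239 and was above 0.1 for 3 of 15 pairs of groups. All 3 joined groups whose first replicate is one of the 3 libraries richest in Kcnq1ot1. The numbers were therefore not taken as pairs across the 6 groups. With the replicate block, 8 calls were gained and 0 lost, and 16 members were called in the activated KO and 22 with AGN192403 at rest. The depth limits the weakest members most, since 6 had a mean under 20 CPM in every group.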
